A study of Mus musculus with 8 samples.

Results

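The regions described here are the 258 BMAL1 peaks that shared at least 1 bp with a CLOCK peak, out of 4125 BMAL1 peaks (6.25%). They were chosen by the overlap of the deposited BMAL1 and CLOCK peak lists, so the scores, tags and centre offsets of these factors are given as a description of the chosen peaks and carry no test. The data were chromatin immunoprecipitation sequencing (ChIP-seq) libraries from Beta-TC6, a mouse insulinoma line that secretes insulin and serves as a model of the pancreatic beta cell. Untreated cells were taken at confluence, crosslinked with DSG, which links proteins to each other, and then with formaldehyde. BMAL1 and CLOCK were precipitated with affinity-purified guinea pig antibodies, and PDX1, H3K4me2, H3K27ac and H2A.Z with commercial ones. Each of the 6 targets had 1 library, so no value below has a replicate and every interval covers counting error only. A pooled input library served BMAL1, CLOCK and H2A.Z in peak calling, and another served PDX1 and the histone modifications. An insulinoma line is a dividing tumour line and not an islet, and the labels give neither a circadian time nor a step that sets the phase of the cells.

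BMAL1, encoded by Arntl, and CLOCK are basic helix-loop-helix PAS proteins that bind DNA as a heterodimer at E-boxes, above all at the palindrome CACGTG. The dimer activates the Per and Cry genes, whose proteins repress it in turn, and nuclear receptors form a further loop on Arntl. In beta cells the clock is known for its role in insulin secretion. H3K27ac and H3K4me2 are histone modifications of active promoters and enhancers, H2A.Z is a histone variant found at promoters and regulatory elements, and PDX1 is a homeodomain factor of beta-cell identity. All 6 of the beta-cell genes checked for the identity of the line (Ins1, Ins2, Pdx1, Nkx6-1, Mafa and Iapp) had an H3K27ac interval.

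The sequences below show the E-box in members at genes outside the core clock. Bases were read from RefSeq promoter windows of 300 bases on GRCm38.p6, which has the coordinates of mm10, and CACGTG is in capitals. Each run is 5′ to 3′ on the strand of the window's gene, ends before the transcription start and lies outside every listed gene span. Nptn, the neuroplastin gene, had the fourth highest BMAL1 score among members outside the core clock list, and the nearer of its copies is 3 bp from the peak centre. Klf11 encodes a Kruppel-like factor studied in beta cells, Slc35a5 a member of the nucleotide-sugar transporter family, Coq10b a coenzyme Q binding protein and Bnip3 a mitophagy receptor. Mcoln1 encodes a calcium channel of the lysosome, Lamtor4 a subunit of the Ragulator complex on lysosomes and Eif4a1 an RNA helicase of translation initiation. The last 3 show that low-scoring members hold the same word. Their nearest copies lie 101 bp, 142 bp and 68 bp from the peak centre, in the order named.
Nptn (chr9:58582063-58582148, + strand): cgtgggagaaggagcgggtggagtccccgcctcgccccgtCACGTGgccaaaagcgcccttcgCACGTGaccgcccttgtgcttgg
Klf11 (chr12:24651121-24651202, + strand): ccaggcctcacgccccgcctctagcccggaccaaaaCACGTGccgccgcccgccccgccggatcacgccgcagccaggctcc
Slc35a5 (chr16:45158695-45158780, - strand): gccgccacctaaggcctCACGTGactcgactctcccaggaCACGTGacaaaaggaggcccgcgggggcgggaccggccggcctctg
Coq10b (chr1:55052652-55052737, + strand): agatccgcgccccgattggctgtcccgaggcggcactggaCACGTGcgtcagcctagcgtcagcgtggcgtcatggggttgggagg
Bnip3 (chr7:138909569-138909654, - strand): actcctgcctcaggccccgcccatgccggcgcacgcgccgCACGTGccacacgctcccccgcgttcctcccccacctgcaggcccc
Mcoln1 (chr8:3500434-3500518, + strand): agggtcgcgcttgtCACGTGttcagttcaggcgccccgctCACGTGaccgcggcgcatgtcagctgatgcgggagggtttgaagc
Lamtor4 (chr5:138255338-138255423, + strand): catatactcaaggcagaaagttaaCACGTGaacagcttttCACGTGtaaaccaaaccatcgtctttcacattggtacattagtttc
Eif4a1 (chr11:69672567-69672652, - strand): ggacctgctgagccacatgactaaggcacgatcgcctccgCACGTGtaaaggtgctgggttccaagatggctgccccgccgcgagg

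Shorter runs are shown for 3 members whose E-boxes lie inside a listed gene span. Hif1a, the oxygen-regulated subunit of HIF-1, has a single copy 6 bp from the peak centre. The member nearest to Hmgb1, which encodes a chromatin protein, lies in the promoter window of the non-coding gene 5930430L01Rik, and a member at Tulp4 lies at that gene's own start. The Hmgb1 and Tulp4 members were the only ones, among those with enough covered sequence, in which a pair of CACGTG words stood 6 or 7 bases apart, the tandem arrangement known from clock genes.
Hif1a (chr12:73907728-73907741, + strand): caagCACGTGagcg
Hmgb1 (chr5:148995219-148995245, - strand): aagtCACGTGtccaggtCACGTGgcct
Tulp4 (chr17:6106780-6106806, + strand): gggtCACGTGgcgcggtCACGTGccca

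The signal at these sites ran from just above the calling threshold to the highest values of both lists. A score of the authors' peak caller is close to the number of tags at the peak, and 13 was the lowest score called. The BMAL1 score of the members had a lowest value of 13, a median of 21 and a highest value of 408, and the CLOCK score a lowest value of 13, a median of 25 and a highest value of 433. The deposited BMAL1 tag count ran from 11 to 406, with a median of 20.5 tags. BMAL1 peaks outside CLOCK had a median score of 14 and reached 136. Of the 25 highest BMAL1 peaks, 19 were members, whereas 119 members (46.1%) scored under 20 and 67 (26.0%) scored under 20 in both lists. The list therefore mixes a tall upper part with many peaks a few tags above the cutoff, at which 1 library gives little precision.

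The heights of the paired peaks moved together. Over the 258 members the Spearman rank correlation of BMAL1 and CLOCK score was 0.77, and over the 233 members at genes outside the core clock it was 0.72. The points share the rule of choice, the cells and the input, so these values are descriptive. The CLOCK score was higher in 168 members (65.1%) and equal in 19. On the normalized scale of tags per 10000000 the order was the opposite, with BMAL1 higher in 181 members (70.2%), since the CLOCK library held 17898856 tags against 12892080. Which factor was higher thus depended on the scale, and the ratios below are used only to rank members against each other.

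**Figure D1:**
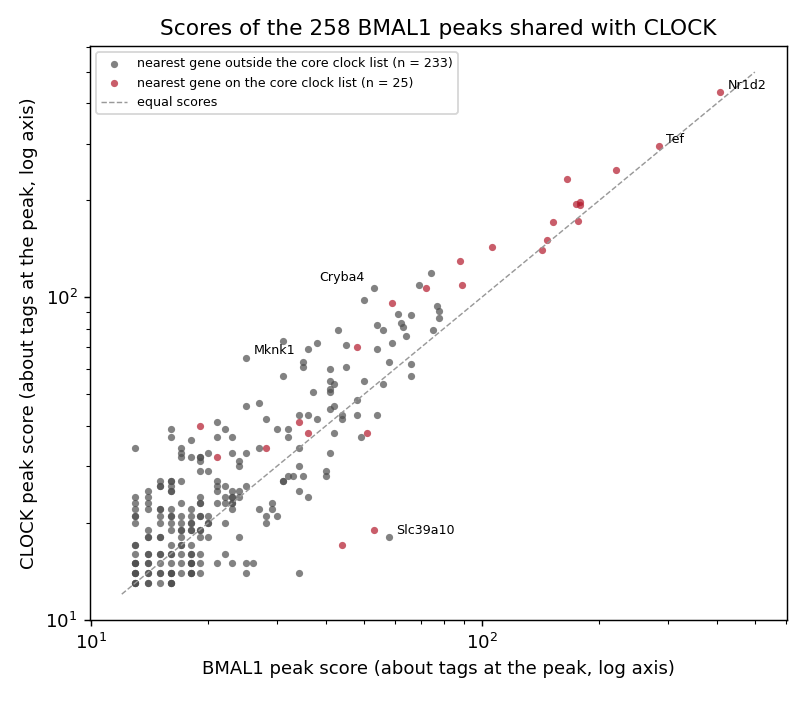
CLOCK peak score against BMAL1 peak score (both about tags at the peak, log axes) for each of the 258 shared peaks, with the 25 peaks at core clock genes in red and the 233 others in grey. The dashed line marks equal scores. Nr1d2 and Tef stand at the upper end, while Slc39a10 (58 and 18) and the red points of Arntl (53 and 19, 44 and 17) lie far below the line.

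The summits lay close together. The centres of the BMAL1 and CLOCK peaks were a median of 41 bp apart and at most 267 bp, and 140 members (54.3%) had centres within 50 bp. In 165 members (64.0%) the CLOCK peak, 205 bp wide, lay wholly inside the BMAL1 peak of 330 bp. The median offset was 28 bp for members with a BMAL1 score of 30 or more, 38 bp at 20 to 29, 63 bp at 15 to 19 and 52.5 bp at 13 or 14. The members with the least overlap were at Lrrc20 (1 bp shared, BMAL1 21, CLOCK 26), Dpf1 (8 bp, 16 and 13) and Rad23b (27 bp, 14 and 13). Just outside the rule stood peaks at Ptbp1 (25 bp from the CLOCK peak, BMAL1 16, CLOCK 14) and Trpv4 (33 bp, 16 and 15). Few peaks stood near this edge, since 8 BMAL1 peaks outside the rule had a CLOCK peak within 100 bp and 32 within 1000 bp.

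Most members lay at genes that are not part of the core clock. Assigned to the nearest start of a protein-coding gene, the members fell to 247 genes, 1.13% of the 21900 coding genes, and 231 of these were outside a list of 27 core clock genes. Core clock genes held 25 members at 16 of the 27 genes (among them Arntl, Per1, Per2, Per3, Cry1, Cry2, Nr1d1, Nr1d2, Bhlhe40, Bhlhe41, Dbp, Tef and Hlf). Their median BMAL1 score was 89, with a range of 19 to 408, against 19 with a range of 13 to 78 for the 233 other members. The ranges overlapped from 19 to 78. Of the 89 members with a score of 30 or more, 67 (75.3%) belonged to genes outside the list, a lower share than the 90.3% of all 258 members. A nearest gene names a position and not a target.

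The highest members outside the core clock list were at Mcf2l and Nt5c2. Mcf2l, which encodes an exchange factor for small GTPases, had a BMAL1 score of 78 (76 tags) and a CLOCK score of 91 inside the gene, 8560 bp downstream of a start (chr8:12934671-12935001). Nt5c2, a cytosolic purine nucleotidase gene, had 78 (75 tags) and 86 inside the gene (chr19:46977502-46977832), and a weaker member of 19 and 23 nearer to a start. Fam25c followed with 77 and 94, and Nptn with 75 and 79, the latter 131 bp upstream of its start (chr9:58581944-58582274). All of these overlapped H3K27ac, and Mcf2l alone of them lay on PDX1.

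Several of the next were genes of metabolism and transport. Hsd17b12, an enzyme of fatty acid elongation, had the highest CLOCK score of the members outside the core clock list (BMAL1 74, CLOCK 119), but at 115458 bp from its start (chr2:94273202-94273532). Adh5, the glutathione-dependent formaldehyde dehydrogenase gene, had 69 and 109 at 286 bp upstream (chr3:138442642-138442972). Dgat2, the enzyme of the last step of triglyceride synthesis, had 64 and 76 at 244 bp from a gene end (chr7:99182792-99183122) and overlapped no histone interval. Slc39a10, a zinc importer gene, differed from the rest, with 58 for BMAL1 and 18 for CLOCK at a distance of 1 bp from its start (chr1:46853454-46853784). Pfkfb3, which sets the level of the glycolytic activator fructose 2,6-bisphosphate, had 48 and 48 inside the gene, 18433 bp from its start.

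Genes of transcription factors and a chromatin protein were also among the 25 highest, grouped here for reading only and not as a tested theme. Hif1a had 66 and 88 at 138 bp from a start (chr12:73907564-73907894) and was one of the members with all 3 histone features. Klf11 had 61 and 89 at 171 bp (chr12:24651035-24651365), with H3K27ac but not H3K4me2. Tsc22d3, a glucocorticoid-induced leucine zipper gene, had 59 and 72 at 22290 bp and was the only member on chromosome X. Foxo3, a forkhead factor of insulin and stress signalling, had 54 and 43 at 1519 bp upstream, again with all 3 features. The member near Hmgb1 (50 and 98) lay 56360 bp from that gene's start (chr5:148995091-148995421), with H3K27ac and H3K4me2.

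The other named members by score covered signalling, RNA and protein turnover genes. Scores of BMAL1 and CLOCK were 63 and 81 at Ncl, which encodes nucleolin, and 56 and 79 at Khdrbs1, which encodes an RNA-binding protein. Ubiquitin ligase genes were represented by Fbxo30 (62 and 83) and Trim8 (54 and 69), and kinase signalling by the kinase gene Rps6ka1 (58 and 63) and the MAP kinase phosphatase gene Dusp4 (50 and 55). Igsf8, of the immunoglobulin superfamily, had 54 and 82, and the muskelin gene Mkln1 49 and 37 at 182203 bp. Efcab10 (66 and 62), 1810013L24Rik (66 and 57), Klhl29 (56 and 54) and the crystallin gene Cryba4 (53 and 107) complete the 25 highest. Of these 25 members, 22 overlapped H3K27ac, 15 overlapped H3K4me2 and 9 lay within 1 kb of a gene start. Over all 258 members the shares were 80.2%, 69.4% and 51.6%. The CLOCK score was above the BMAL1 score in 19 of them, whereas on normalized tags CLOCK was above BMAL1 in 7.

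A small number of members lay at genes on functional lists. Of 358 genes on 11 lists other than the core clock, 18 (5.03%) had a member, beside the 1.13% of all coding genes. The lists were chosen with earlier results of these data known, so their shares are a description and no test of enrichment. The Kruppel-like and immediate-early factors had the most with 5 of 27: Klf11, Tsc22d3, Klf9 (42 and 54), Klf10 (21 and 23) and the Notch effector Hes1 (18 and 15). Klf9 and Klf10 are Kruppel-like factors known from clock output in other tissues. Lipid metabolism had 3 of 35, namely Dgat2, the sterol and lipid regulator Srebf1 (23 and 23) and the mitochondrial coactivator Ppargc1a (16 and 14, at 3 bp from its start). Cell cycle and growth had 3 of 30, which were Ccne1 (35 and 63), a cyclin gene, the mitotic inhibitor kinase Wee1 (17 and 23) and Mknk1 (25 and 65), a kinase of the translation factor eIF4E.

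The remaining lists, among them those of beta-cell genes, held 0 to 2 genes with a member each. Of 35 genes of G-protein and cyclic AMP signalling, the phosphodiesterases Pde10a (31 and 27) and Pde4b (29 and 22) had a member, both inside the gene. Mlxipl, the glucose-responsive factor ChREBP, was the only gene with a member among 27 beta-cell transcription factors (15 and 15), as was Vps26a, of the retromer, among 45 matched diabetes locus genes (18 and 21). Glucose metabolism (Pfkfb3, of 33), NAD and redox (Adh5, of 31) and stress and hypoxia (Hif1a, of 27) each had 1. None of 52 vesicle exocytosis genes and none of 26 insulin processing and granule genes had a member. Of the 52, 13 were the nearest gene of some BMAL1 peak, and of the 26, 7 were. Both are larger shares than the 12.1% of all coding genes, and the difference was not tested. With 1.13% of coding genes nearest to a member, lists of this size are too short to read a 0 as a difference, and a count of 0 allows shares of up to 5.77% and 11.5% for these lists (3 counts each). Abcc8, a subunit of the beta-cell potassium channel, is a gene with a BMAL1 score of 120 and no overlapping CLOCK peak. No listed peak scored under 13, so a lower CLOCK signal at these genes was not detectable here.

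Members differed in the balance of the factors. Among the 127 members with both scores of 20 or more, the ratio of CLOCK to BMAL1 score had a median of 1.16 and ran from 0.667 to 2.60. The highest ratios were at Mknk1 (25 and 65), Atxn3 (31 and 73), a deubiquitinase gene, Cryba4, Hmgb1 and Pus7 (21 and 41), a pseudouridine synthase gene. Among the lowest were those at AI429214 (36 and 24), Ntm (30 and 21), the amino acid transporter gene Slc6a15 (28 and 20) and the chromodomain gene Cdyl (40 and 29). At these counts many ratios between the extremes cannot be told from equal tags, and no test was made because both scores entered the choice of the peaks.

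The shared peaks lay nearer to gene starts than the other BMAL1 peaks. Within 1 kb of a gene start lay 133 members (51.6%, Wilson 95% interval 45.5 to 57.6), against 10.4% of all BMAL1 peaks, 7.63% of those outside CLOCK and 32.5% of CLOCK peaks outside BMAL1. The median distance was 739.5 bp for members and 55376 bp for BMAL1 peaks outside CLOCK. Of the 133, 65 were upstream and 49 downstream of the start, and 19 lay at genes for which no strand was listed. A distal class remained, as 76 members (29.5%) were over 10 kb and 35 (13.6%) over 50 kb from any start. The centre lay inside a coding gene in 51.9% of members and 50.7% of BMAL1 peaks outside CLOCK, so the shares were close.

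**Figure D2:**
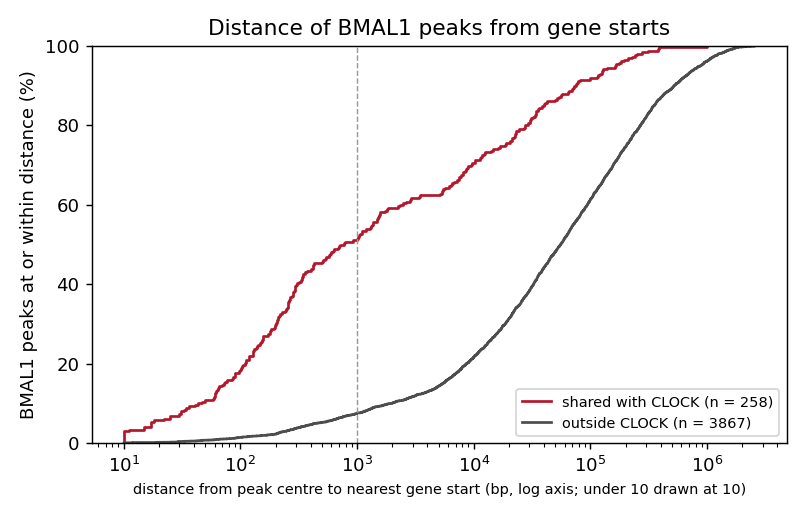
Cumulative share of peaks (%) against the distance from the peak centre to the nearest gene start (bp, log axis, distances under 10 bp drawn at 10), for the 258 shared BMAL1 peaks in red and the 3867 outside CLOCK in grey. At the dashed line of 1000 bp the curves stand at 51.6% and 7.63%.

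Members score higher than the other BMAL1 peaks, so the shares were also compared within classes of BMAL1 score. The classes match the BMAL1 score only, since each member also has a called CLOCK peak and the others have none overlapping. With a BMAL1 score of 13 or 14, 18 of 34 members (52.9%) and 5.66% of the 2775 others were within 1 kb of a start. At scores of 15 to 19 the shares were 50.6% and 11.1%, and at 20 to 29 they were 50.0% and 25%. At 30 or more they were 52.8% of 89 members and 37.0% of 27 others, a difference of 15.8 points whose Newcombe 95% interval (-5.59 to 34.2) includes 0. The share of members thus stayed near 50% in each class, while that of the other peaks was larger in each higher class.

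Histone features were measured in libraries that had no part in choosing the peaks. H3K27ac covered 207 members (80.2%, 74.9 to 84.6), against 18.3% of all BMAL1 peaks and 14.1% of those outside CLOCK. H3K4me2 covered 179 (69.4%, 63.5 to 74.7), against 18.4% and 15.0%. H2A.Z covered 70 (27.1%, 22.1 to 32.9), against 8.63% and 7.40%. CLOCK peaks outside BMAL1 lay between, with 59.0% in H3K27ac, 52.7% in H3K4me2 and 17.9% in H2A.Z. The 204 acetylated intervals that held a member had a median of 214 normalized tags and 2139 bp, against 49.1 tags and 1163 bp over all 29735. Of the 204, 72 (35.3%) were in the upper 10% by tags. Where a member overlapped several intervals, the one with the most tags was taken. A wider interval has more room to overlap any peak, and intervals holding other BMAL1 or CLOCK peaks were not compared. The size is thus not shown to be particular to the members.

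Combinations of marks varied. Both H3K27ac and H3K4me2 covered 148 members (57.4%), H3K27ac without H3K4me2 59 (22.9%) and H3K4me2 without H3K27ac 31 (12%), and 47 (18.2%) had all 3 features. The 16 members (6.2%) with none of the 3 stood against 78.3% of BMAL1 peaks outside CLOCK. Among the highest of them were those at Dgat2, Arntl and Eif5a2 (45 and 71), a translation factor gene. The Arntl members (53 and 19, 44 and 17) lay inside the gene, 76970 and 78014 bp from the nearest listed start, and had lower CLOCK than BMAL1 scores.

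The difference in H3K27ac was present in each class of BMAL1 score. At 13 or 14, 73.5% of members and 10.5% of the other BMAL1 peaks overlapped H3K27ac, a difference of 63.1 points (46.4 to 75). The difference was 59.9 points (50.0 to 67.2) at 15 to 19, 41.4 points (25.4 to 53.9) at 20 to 29 and 35.7 points (14.7 to 53.6) at 30 or more. H3K4me2 gave 53.2, 48.2, 22.9 and 46.0 points, with every interval above 0. H2A.Z gave 17.4, 22.2 and 21.7 points in the lower 3 classes, and 6.53 points at 30 or more, where the interval (-12.6 to 19.6) includes 0.

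**Figure D3:**
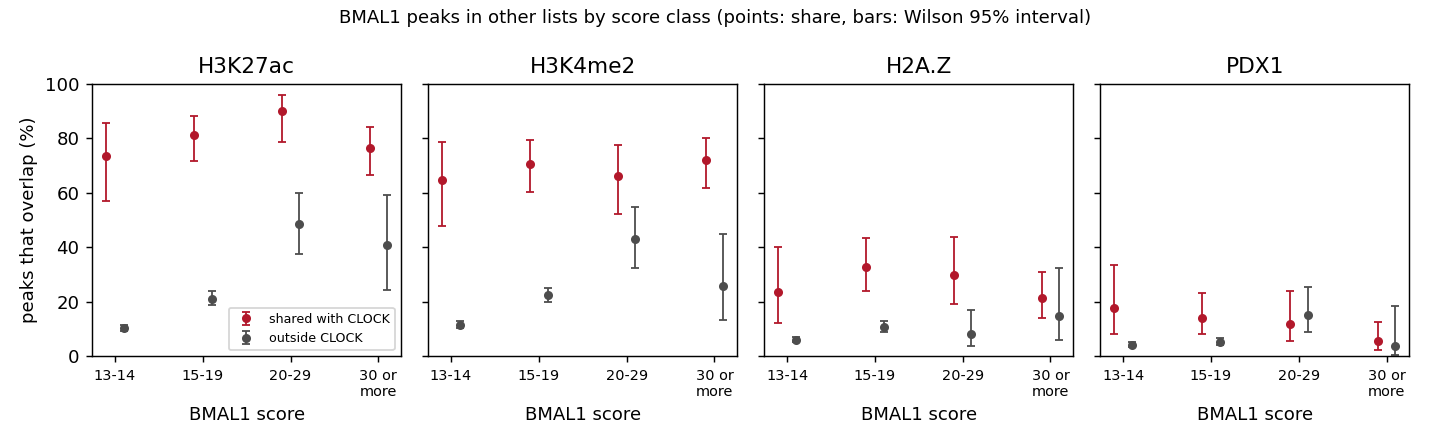
Share of BMAL1 peaks (%) that overlapped H3K27ac, H3K4me2, H2A.Z or PDX1 in 4 classes of BMAL1 score, for peaks shared with CLOCK (red) and outside CLOCK (grey), with Wilson 95% intervals as bars. For H3K27ac the shared peaks stand at 73.5% to 90.0% and the others at 10.5% to 48.6%, while the PDX1 intervals overlap at scores of 20 or more.

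Distance from a start moved with these shares, so the peaks were next split at 1 kb from a start. Within 1 kb of a start, H3K4me2 covered 74.4% of members and 72.5% of BMAL1 peaks outside CLOCK, and H2A.Z covered 32.3% and 46.1%, the lower value now in the members. H3K27ac covered 82.7% and 63.7% there. Beyond 1 kb the shares were 77.6% and 10.1% for H3K27ac, 64.0% and 10.2% for H3K4me2, and 21.6% and 4.20% for H2A.Z. Distance still differed in this part, where 60.8% of members and 84.7% of BMAL1 peaks outside CLOCK were over 10 kb from a start. Near a start the H3K4me2 shares were thus close to equal, and the gap between near and distal peaks was not itself tested. The peaks were not split by score and distance together. Core clock and other members had similar H3K27ac shares of 76.0% (19 of 25) and 80.7% (188 of 233).

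PDX1, the beta-cell factor, overlapped 29 members (11.2%, 7.94 to 15.7), against 5.14% of all BMAL1 peaks and 21.5% of CLOCK peaks outside BMAL1. When the BMAL1 peak centre had to lie inside the PDX1 peak the share was 5.04% of members (13 of 258, 2.97 to 8.43), against 2.45% of all BMAL1 peaks. All 29 were at genes outside the core clock list (12.4% of 233, 8.81 to 17.3), and 0 of the 25 core clock members lay on PDX1 (0 to 13.3). The latter interval includes 12.4%, so no difference is detectable at these counts. Only 2 of 133 members within 1 kb of a start lay on PDX1 (1.5%), at Pxt1 (37 and 51) and at Flcn, the folliculin gene (14 and 16), against 27 of 125 farther out (21.6%). BMAL1 peaks outside CLOCK had 1.36% near starts and 5.01% farther out.

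The highest members on PDX1 were Mcf2l, Cryba4 (53 and 107, at 276505 bp from any start), Pxt1, AI429214 and Znrf2 (33 and 28), a ubiquitin ligase gene. Rere (27 and 34), Mknk1, Elp3 (25 and 33), a subunit of Elongator, Slc2a7 (23 and 25, inside the fructose transporter gene Slc2a5) and Trub1 (23 and 24) followed. A weaker one (17 and 19) had Irs2, an insulin receptor substrate gene, as its nearest gene, at 313216 bp. The median BMAL1 score was 19 on PDX1 and 22 off it. By score class the difference from other BMAL1 peaks was 13.4 points at 13 or 14 and 8.88 at 15 to 19, with intervals above 0 (4.02 to 29.2 and 2.82 to 17.9). It was -3.28 points (-15.2 to 10.2) at 20 to 29 and 1.91 (-13.0 to 9.43) at 30 or more, which leaves no difference detectable at these counts.

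The shared sites were scattered along the genome, with a few close groups. Between consecutive members on a chromosome the median distance was 4413852 bp over 238 pairs. Within 50 kb there were 12 pairs, and 22 members (8.53%) had another member that near. The number of pairs was lower under stricter rules, at 4 with the CLOCK peak wholly inside or centres within 50 bp, 7 with both scores of 20 or more and 4 with a fold over input of 8 or more. Over all BMAL1 peaks 26.3% had another BMAL1 peak within 50 kb, a list with many more peaks and so shorter gaps. A BMAL1 peak outside CLOCK stood within 50 kb of 72 members (27.9%), and a CLOCK peak outside BMAL1 within 50 kb of 29 (11.2%). Peaks nearer than 660 bp could not be called apart for BMAL1, so paired binding at shorter range is not visible in the spacing.

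Of the 10 groups with neighbours within 50 kb under the 1 bp rule, 7 were at core clock genes, a split not counted under the stricter rules. The closest pair, at Bhlhe40, a repressor that competes for E-boxes, was 906 bp apart (BMAL1 36 and 34), in the same H3K27ac interval, with another member 8135 bp on. The Arntl pair was 1044 bp apart. At Nr1d1, the REV-ERBα gene, members of 179 and 88 were 1331 bp apart and a member of 106 stood 8165 bp farther. Dbp, a PAR bZIP output factor, had members of 143 and 176 at 2846 bp, and Cry2 members of 19 and 48 at 10332 bp. Pairs also occurred at Bhlhe41 (10537 bp) and Hlf (27342 bp).

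The other 3 groups were outside the core clock list. Nt5c2 had members of 19 and 78 at 6620 bp, both inside the gene and in different H3K27ac intervals. Esrra, a nuclear receptor gene of mitochondrial metabolism, and its neighbour Gpr137 had members of 16 and 34 at 19344 bp, near the start of each gene. Supv3l1, a mitochondrial RNA helicase gene, and Vps26a had members of 38 and 18 at 36474 bp. No peak of either factor alone stood between the members of these 3 pairs. The same held for the core clock pairs within 50 kb, except that at Bhlhe41, which had 1 CLOCK peak between.

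**Figure D4:**
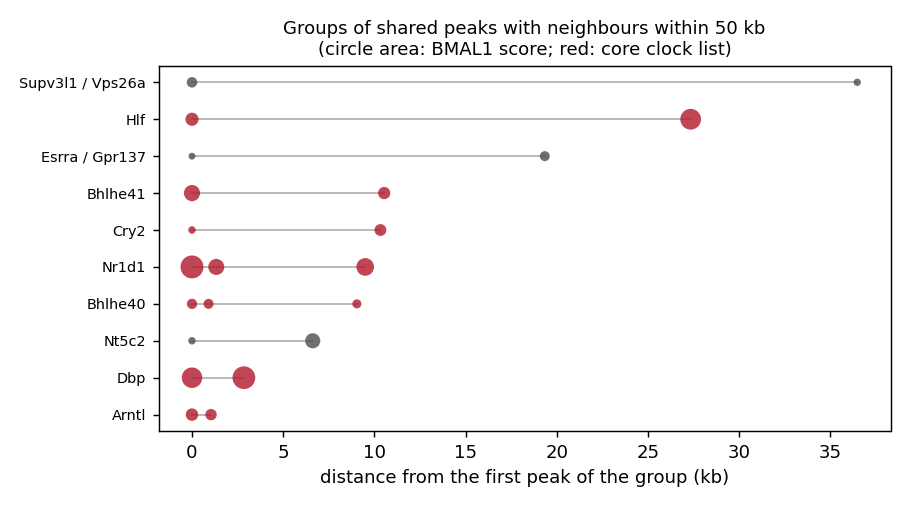
Position of each shared peak in the 10 groups with neighbours within 50 kb, as distance from the first peak of the group (kb), with circle area by BMAL1 score and core clock genes in red. Nr1d1 and Bhlhe40 hold 3 peaks each, and the widest group, Supv3l1 and Vps26a, spans 36474 bp.

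The E-box could be sought only where promoter windows covered the peaks. Windows covered at least 150 bases in 65 members (25.2%), with a median of 250 bases, and the distal members were not searched. CACGTG, which reads the same on both strands, was found in 43 of the 65 (66.2%, 54.0 to 76.5). It was found in 18 of 69 BMAL1 peaks outside CLOCK (26.1%, 17.2 to 37.5) and in 77 of 147 CLOCK peaks outside BMAL1 (52.4%, 44.3 to 60.3), and in 7.15% of all 32851 windows of 300 bases. Over whole 300-base windows touched by a peak the shares were 57.5% of 106 for members and 21.5% for BMAL1 peaks outside CLOCK. The members' covered bases were rich in G and C (67.7% against 63.5% in the peaks outside CLOCK), and the part of base composition was not tested.

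The word was found in low-scoring and high-scoring members alike, with no difference detectable at these counts. It was present in 23 of 32 with a BMAL1 score of 13 to 19 (71.9%), in 6 of 11 with 20 to 29 (54.5%) and in 14 of 22 with 30 or more (63.6%), with wide overlapping intervals. Among BMAL1 peaks outside CLOCK with a score of 13 to 19 it was present in 14 of 58 (24.1%). The related word CACGTT, or AACGTG on the other strand, was in 13.8% of the 65 (7.46 to 24.3) and in 7.25% of the 69 (3.13 to 15.9). CTCGAG, a palindrome of the same letters in another order, was in 6.15% (2.42 to 14.8) and 1.45% (0.256 to 7.76). For both words the intervals overlap, so no difference is detectable at these counts. Over whole windows the shares were 14.2% and 7.98% for CACGTT, and 7.55% and 6.13% for CTCGAG. The printed pairs at Hmgb1 and Tulp4 were 2 of 65, against 0 of 69 and 1 of 147, and 6 of the 32851 windows held such a pair.

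Most of the copies found lay within 50 bp of the peak centre. Of 60 copies in the 43 members, 40 were within 50 bp and 53 within 100 bp of the BMAL1 centre, and the nearest copy was a median of 33 bp away. The search was confined to covered bases inside the 330 bp peaks, which limits how far away a copy could be. No expected share for evenly spread copies was computed. As printed above, Nptn and Slc35a5 have a copy at 3 and 7 bp, Hif1a at 6 bp, and Lamtor4, one of the exceptions, at 142 bp. There were 16 members with more than 1 copy, among them Nptn, Slc35a5, Mcoln1 and Lamtor4. The flanks TCACGTGA surrounded 5 of the 60 copies (8.33%) and 12.7% of the copies in all windows. A matching word describes the sequence and does not show which factor was bound to it.

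**Figure D5:**
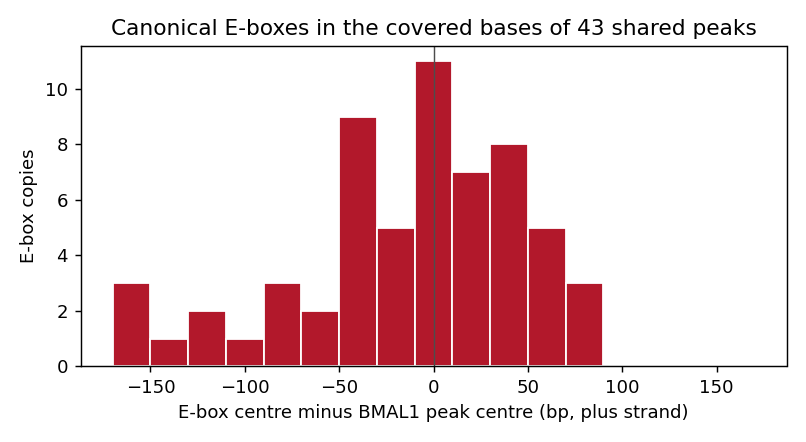
Number of CACGTG copies by the distance of the copy from the BMAL1 peak centre (bp, plus strand) in the 43 shared peaks with at least 1 copy in their covered bases. Of 60 copies, 40 lie within 50 bp of the centre.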

How the data were processed

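The submitters' processing notes name Bowtie 1.1.1, the build mm10 and HOMER (version not given in the sources used here). Each library had its own peak calling, per the file headers, with a tag threshold for factors of 13, which is also the lowest score, 4-fold over input and 4-fold over the local 10 kb at an FDR of 0.001. The authors' deposited columns used here were the tag count of each BMAL1 peak, the normalized tag count (a signal scaled to 10000000 tags), the peak score and the fold over input, a ratio. Totals were 12892080 (BMAL1), 17898856 (CLOCK), 19568242 (PDX1), 26678241 (H3K4me2), 13430083 (H3K27ac) and 18513695 tags (H2A.Z), per the file headers. The header of the H2A.Z list, and not the sample description, was followed for its input. Further deposited columns, among them the p-value of each peak, entered no result.

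An overlap needed 1 shared bp, both ends included. Gene positions came from RefSeq tables for GRCm38.p6, which has the coordinates of mm10. Listed starts and the strand-aware 5′ end were used for 17492 of 21900 coding genes, and both ends for the other 4408, through which 52 members were assigned. Exons, introns and UTRs were not determined. Shares have Wilson 95% intervals and differences Newcombe 95% intervals. The limits given for gene lists with a count of 0 are instead 3 counts over the list size. No p-values were computed, because each target had 1 library. E-boxes were sought on both strands in promoter windows from 250 bases before to 50 after a start.

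The members and the 12 lists, which held 387 genes of which 385 matched, were chosen with earlier results of these data known. Named were the 25 highest members outside the core clock list, every member on another list, the 10 highest on PDX1, the 8 closest pairs, the 5 highest and 5 lowest ratios, the 5 highest without a histone mark, and 3 peaks on each side of the rule. Slc35a5, Coq10b, Bnip3, Mcoln1, Lamtor4, Eif4a1, Tulp4, Flcn and Irs2 were added after their values were seen, as were the pairs beyond the 8 closest and the peak at Abcc8. A few items that this rule names are not reported here. Alternatives were other overlaps, stricter scores and folds, other distances and other gene positions. The code for overlaps and nearest positions was tested on simulated intervals, and the other steps were not. Computation used pandas 2.3.3 and NumPy 2.4.6 under Python 3.11.15, with SciPy 1.17.1 for rank correlations and matplotlib 3.10.9 for plots.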

Additional observations from a re-analysis of the deposited data

How the results depend on the processing

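Over 8 results, 51 alternative values were computed, of which 37 stayed within the 95% interval of the share, or within 1.5 times the count, given above and 14 moved. The number of shared peaks was 165 when the CLOCK peak had to lie wholly inside, 140 with centres within 50 bp, 127 with both scores of 20 or more and 123 with a fold over input of 8 or more. Pairs within 50 kb fell to 4, 4, 7 and 4 in the same order. H3K27ac shares ran from 76.4% to 82.2%, H3K4me2 shares from 64.0% to 74.0% and CACGTG shares from 60.0% to 74.3%. The H2A.Z share was 35.0% at a fold of 8 or more and 21.3% when the peak centre had to lie inside the interval, and the PDX1 share was 5.04% under that centre rule. The share near a start was 45.3% within 500 bp, 62.4% within 5 kb and 45.0% with both ends of every coding gene as starts, an alternative chosen after seeing the data. The cause of these moves was not tested, beyond the smaller sets and other distances that the alternatives use. Depth limits the lower part of the list, where 34 members had a BMAL1 score of 13 or 14.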

Other observations

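The members' share of all BMAL1 peaks differed between chromosomes. It was 36.4% on chromosome 9 (8 of 22 BMAL1 peaks), 16.2% on chromosome 7 (21 of 130), 15.7% on chromosome 2 (13 of 83) and 15.0% on chromosome 11 (23 of 153). It was 2.87% on chromosome 14 (10 of 348), 3.31% on chromosome 1 (9 of 272) and 3.31% on chromosome 5 (15 of 453). The number of members per chromosome varied less than the number of BMAL1 peaks, from 6 to 23 on the autosomes against 22 to 476.

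High BMAL1 peaks without CLOCK were also present. Of 116 BMAL1 peaks with a score of 30 or more, 27 (23.3%) had no overlapping CLOCK peak. The highest of these were at Myf6, a muscle regulatory factor gene (136), Abcc8 (120), Tmc7 (102), Plek2 (87), Pde4b (82) and Fam43a (76). Only Abcc8 of these 6 overlapped H3K27ac, and none overlapped PDX1. Over all 27 the counts were 11 for H3K27ac (40.7%) and 1 for PDX1 (3.70%). These 6 peaks are too few to be set apart from that class. Pde4b thus held a shared peak of 29 and a BMAL1 peak of 82 outside CLOCK, both inside the gene.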
